A study of Malus domestica with 34 samples.

Results

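Roots of apple seedlings (Malus domestica) sampled in the year after planting, when the plants had passed a winter, were compared with roots sampled at the end of the previous season. The comparison held 10 of the 34 RNA libraries of the study: the 4 root libraries of the next year against the 6 root libraries of the third sampling, chosen by their labels alone. All plants were greenhouse seedlings raised from seed of GDDH18, a doubled haploid of 'Golden Delicious', the only genotype in the labels, and had been sown in 3 blocks 1 week apart. Each block counts as a biological replicate. From an age of 12 weeks, plants were either kept well-watered near 80% soil water content or taken through 3 cycles, each with 3 weeks of drought at 45% of field capacity and 3 weeks of rewatering. The third sampling gave well-watered roots and roots of the third drought, with 3 libraries each. The next-year sampling came before any new stress and gave 2 libraries from well-watered plants, of blocks 2 and 3, and 2 from plants with the drought history, of blocks 1 and 3. The labels give the short supply of roots as the reason for the smaller number.

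A tree's root system is built anew in part every year. Fine roots die back and regrow, root growth slows in the cold and resumes in spring, and starch and nitrogen stored in roots over winter are drawn on by the new growth above ground. The next-year roots were also older, were sampled on another date and, in the drought arm, no longer stood in dry soil. These differences cannot be told apart from winter by this design, nor can any difference in the handling of the libraries of the 2 samplings. In whole roots, fewer cells of a type and less RNA per cell cannot be told apart.

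The 10 libraries held between 29963017 and 60194325 estimated counts each. Their identity as root was checked with genes chosen on the first-sampling libraries, which the comparison does not use. The 515 genes above 10 CPM (read counts scaled to a common library size) in every leaf library and below 1 CPM in every root library of that sampling took 0.00801% to 0.0147% of the counts in the 10 root libraries and 3.51% to 7.71% in the 12 leaf libraries of the same 2 samplings. The 281 genes with the reverse pattern took 1.75% to 2.22% in root and 0.00389% to 0.0156% in leaf. The table names genes only by identifier, and 0 of its identifiers matched the RefSeq table at hand, so genes are described by level and pattern, with at most 2 identifiers in each direction per comparison and without sequence.

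The root libraries were mostly closest to others of their season, and block 3 of the third sampling stood apart. On log2 CPM of the tested genes, the 6 pairs of next-year libraries correlated between 0.958 and 0.979, and the 24 pairs across the seasons between 0.896 and 0.968. The most similar library came from the same season for 9 of the 10 libraries, from the same sowing block for 4 and from the same regime for 3. Those closest to their own block were all third-sampling libraries. The pair of block 1 at the third sampling correlated at 0.958, and each of its libraries was closer to a block 2 library. The exception in season was the next-year drought library of block 3, which was closest to the drought library of block 2 at the third sampling. Both block 3 libraries of the third sampling stood apart from the other 4 there: they correlated at 0.971 with each other and at 0.910 to 0.958 with blocks 1 and 2, which correlated at 0.956 to 0.974 among themselves. In the next year the block 3 pair correlated at 0.962, within the range of the other pairs.

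**Figure D1:**
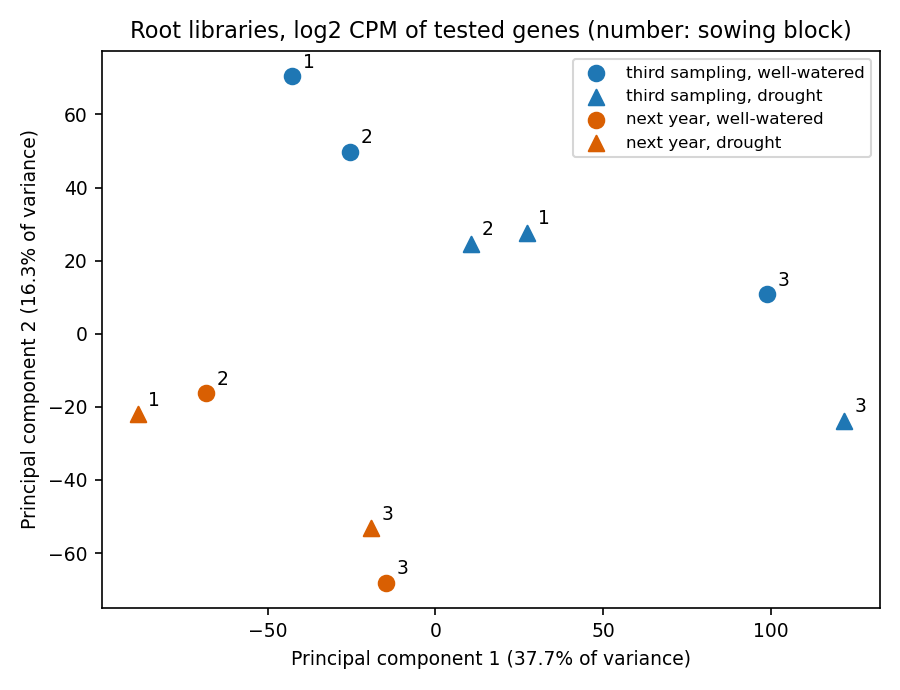
Principal components 1 (37.7% of the variance) and 2 (16.3%) of log2 CPM in the 10 root libraries, with colour for the season, symbol for the regime and the sowing block as a number. The 2 third-sampling libraries of block 3 lie farthest right, at 99.0 and 121.9, and the next-year libraries lie below 0 on the second component, as does the third-sampling drought library of block 3.

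After winter, some root genes stood at another level than in the previous season, and their number depended strongly on whether the sowing block was in the fit. Without it, the test covered 32864 genes and called 265 as risen and 169 as fallen by the next year (edgeR quasi-likelihood test with regime as a term, Benjamini-Hochberg adjusted p under 0.05), together 1.32% of the genes tested, or 0.806% higher and 0.514% lower. Before adjustment, 5977 genes (18.2%) had a p under 0.05. The median rise was 2.35-fold and the median fall 2.07-fold. A change of at least 4-fold was reached by 52 of the genes that rose and 50 of those that fell, while 94 and 81 changed by less than 2-fold. Summed, the risen genes made up 0.579% ± 0.0451 of the counts at the third sampling (SD, n = 6) and 1.24% ± 0.112 in the next year (n = 4), and the fallen genes 0.461% ± 0.0386 and 0.23% ± 0.0161. These shares describe the genes chosen and add no test.

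Called genes occurred at every level of expression. By mean level, 0.948% of the genes under a log2 CPM of 0 were called, 1.04% from 0 to 2, 1.22% from 2 to 4, 1.85% from 4 to 6 and 1.37% above 6. The median log2 CPM was 4.09 for the genes that rose, 3.61 for those that fell and 3.11 for all tested genes. Every next-year library lay above every third-sampling library for 247 of the 265 genes that rose, and below for 168 of the 169 that fell; over all tested genes these shares were 3.24% and 3.44%.

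The sowing block had a large bearing on how many genes passed the test. The labels tie the replicate number to the sowing, so a block term was fitted, which takes the block effect to be the same in both seasons. Across the seasons, the 4 pairs of the same regime and block had a median correlation of 0.9425, against 0.9464 for all 24 pairs. Whether the block effect carried over the winter was not tested. With the block as a further term 1677 genes were higher, or 5.1% of those tested, and 1351 lower, or 4.11%, together 9.21%. All 434 genes of the fit without the block were called in the same direction. DESeq2 without the block called 1254 higher and 1229 lower, so that 50.5% of its calls were higher against 61.1% with edgeR. The median log2 change over all tested genes was -0.012 in the edgeR fit and -0.0051 with the block.

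The count without the block also depended on each library. It was 178, 142 and 148 without the well-watered third-sampling library of block 1, 2 or 3, and 112, 195 and 251 without the drought library of block 1, 2 or 3. It was 110 and 38 without the well-watered next-year library of block 2 or 3, and 95 and 135 without the drought library of block 1 or 3. In all 10 of these fits, 18 genes stayed higher and 13 stayed lower. The 18 had a median log2 change of 2.51 and at least 1.21, and the 13 a median of -3.69 and a fall of at least 0.95 on the log2 scale. Among these 31, 5 had 3 counts or fewer over all libraries of a season.

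**Figure D2:**
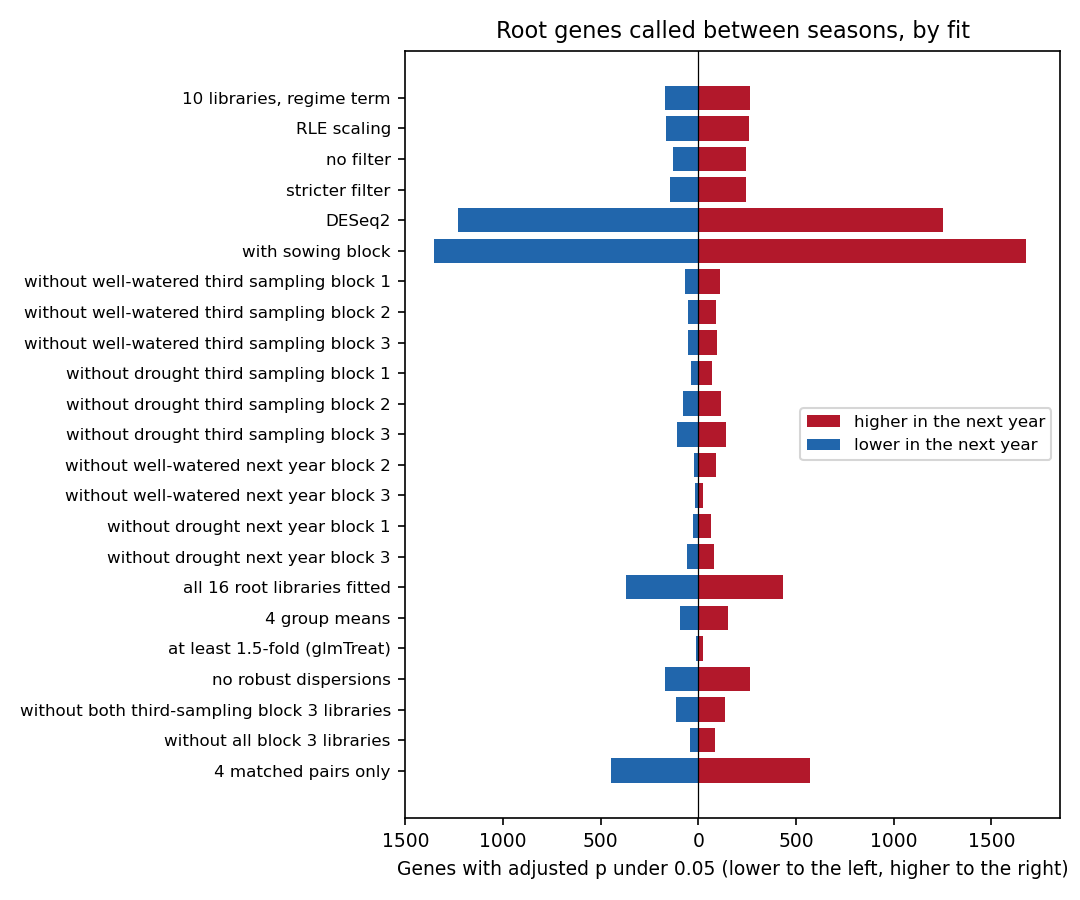
Number of root genes called between the seasons in each fit, higher in the next year to the right and lower to the left. The fits with the sowing block (1677 higher and 1351 lower) and by DESeq2 (1254 and 1229) called the most, and leaving out the well-watered next-year library of block 3 left 22 and 16.

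No gene was called by edgeR for a season difference that depended on the drought history. The test of the difference itself, the regime by season term, called 0 of 32864 genes with edgeR, or 0% (724 genes or 2.2% at an unadjusted p under 0.05), and 6 with DESeq2. With the sowing block edgeR also called 0, with 3324 genes at an unadjusted p under 0.05. Among the 434 called genes, 12 had an unadjusted p under 0.05 for this term. The fitted change had the same sign in both regimes for 264 of the 265 genes that rose and for all 169 that fell, against 65% of all tested genes, where the pooled test favours a shared sign by construction. The median log2 change of the genes that rose was 1.24 in well-watered and 1.21 in droughted plants, and that of the genes that fell was -1.13 and -1.

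Within a single regime, 2 libraries against 3, few genes passed. Both regimes were tested in the same fit of all 10 root libraries, so they shared the estimate of the spread. In well-watered roots 4 genes were higher and 4 lower, and in droughted roots also 4 and 4 (edgeR, 0.0122% of the tested genes in each direction and 0.0243% together). The same 8 genes were called in both regimes. With the sowing block as a term there were 21 higher and 16 lower in well-watered roots, and 1001 higher and 406 lower in droughted roots. The regime itself, pooled over both samplings, gave 0 calls with edgeR, or 0% (816 genes at an unadjusted p under 0.05, or 2265 and 0 calls with the sowing block), and 4 with DESeq2.

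For 4 next-year libraries the same regime and block had also been sampled in the previous season, which gives a comparison within each sowing. In the well-watered pair of block 2, 262 of the 265 genes that rose were higher in the next year, with a median log2 difference of 1.02. The number was 264 in the well-watered pair of block 3 (median 1.31) and 265 in the drought pairs of block 1 (median 1.17) and block 3 (median 1.41). All 169 genes that fell were lower in each of the 4 pairs, with medians of -1.09, -1.15, -1.09 and -0.94 in the same order. The next-year library was the higher one for 49.6% to 51.5% of all tested genes. Since these libraries chose the genes, the pairs describe how evenly the difference was spread and test nothing.

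Genes named for the season difference had to stay called in every fit leaving out a library and not overlap between seasons. The gene with the largest fold among those that rose, MD10G1033300, was present in one season and absent from the other. It had 0 counts in all 6 third-sampling libraries, and in the next year stood at 64.7 and 33.2 CPM in well-watered roots of blocks 2 and 3 and at 69.3 and 97.5 CPM in roots with a drought history of blocks 1 and 3. Against a floor of 3 counts over the third-sampling group, it was at least 5220-fold higher (edgeR adjusted p = 0.00235, at most 0.0171 when any library was left out). At the first sampling, 1 of the 6 root libraries held it at 11.0 CPM and the other 5 had 0 counts.

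MD15G1071400 showed the largest rise in CPM. Its third-sampling levels were 63.2, 57.3 and 90.8 CPM in well-watered roots of blocks 1, 2 and 3 and 59.9, 58.6 and 66.9 CPM in drought roots, and its next-year levels were 234, 315, 141 and 235 CPM in the order given above. The seasons did not overlap. The means were 66.1 ± 12.6 CPM (SD, n = 6) and 231 ± 71.1 CPM (n = 4), which on the log2 scale was a rise of 1.78 (SE 0.20; adjusted p = 0.00596, edgeR). Within the 4 matched pairs the log2 difference was 2.03 and 1.79 for well-watered blocks 2 and 3 and 1.24 and 1.81 for drought blocks 1 and 3.

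Among genes that fell, MD05G1239800 was the reverse of the first gene. It stood at 14.4, 14.5 and 8 CPM in well-watered roots of blocks 1, 2 and 3 at the third sampling and at 9.18, 7.43 and 7.72 CPM in drought roots, and had 0 counts in all 4 next-year libraries. It was at least 633-fold lower in the next year by the same floor (edgeR adjusted p = 0.000506, at most 0.00586 when any library was left out). All 6 root libraries of the first sampling held it, at 4.28 to 9.53 CPM.

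MD11G1200600 had the largest fall in CPM. It stood at 133, 149 and 124 CPM in well-watered and 128, 105 and 110 CPM in drought roots at the third sampling, and at 56.1, 67.1, 58.3 and 51.6 CPM in the next year. Every next-year library lay below every earlier one, with means of 125 ± 16 CPM (SD, n = 6) and 58.3 ± 6.51 CPM (n = 4), which on the log2 scale was a change of -1.09 (SE 0.13; adjusted p = 0.00662, edgeR). Against a minimum change of 1.5-fold it did not pass (adjusted p = 0.0867).

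**Figure D3:**
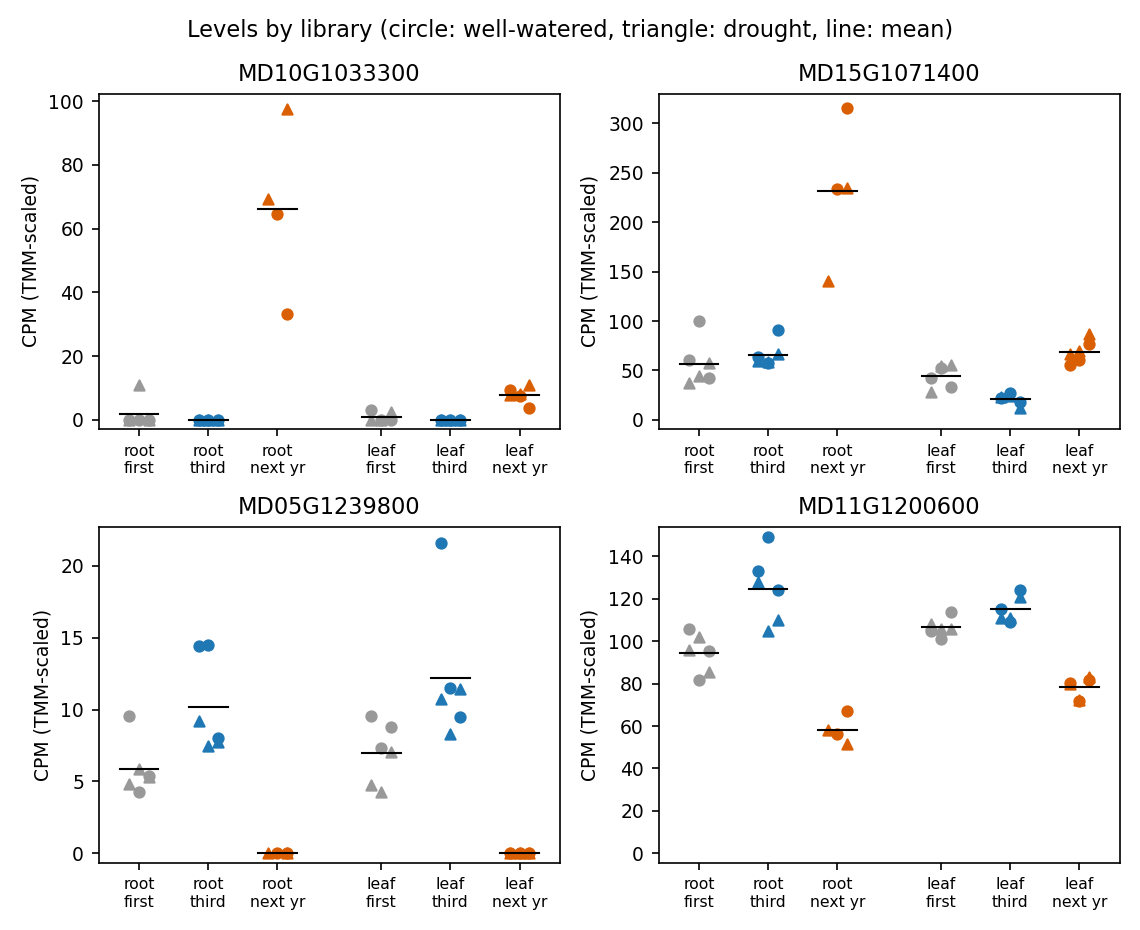
CPM of the 4 named genes in every root and leaf library by sampling, with circles for well-watered, triangles for drought and a line at the mean. MD10G1033300 had 0 counts at the third sampling and MD05G1239800 in the next year, in root and in leaf alike, and the other 2 genes changed in the same direction in both tissues.

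The first-sampling roots show whether the next-year level had been seen earlier in the life of the plants. By summed share of counts it had not, for either set. The genes that rose took 0.633% ± 0.0536 at the first sampling (SD, n = 6), near the 0.579% of the third and below the 1.24% of the next year. The genes that fell took 0.398% ± 0.0353, between the 0.461% of the third and the 0.23% of the next year. The mean log2 level of a gene at the first sampling was nearer to its next-year than to its third-sampling level for 13 of the 265 genes that rose, or 4.91%, and for 41 of the 169 that fell, or 24.3%, against 38.2% of all tested genes. It lay between the levels of both later samplings for 134 of the genes that rose (50.6%) and 155 of those that fell (91.7%), against 35.4% of all tested genes. It lay beyond the next-year level for 1 and 0, against 23.6%, and beyond the third-sampling level for 130 (49.1%) and 14 (8.28%), against 41%. The later samplings chose the genes, so these counts are a description. Between the first and the third sampling, in a comparison that shares the third-sampling libraries, edgeR called 0 of 32676 root genes, or 0% (4570 at an unadjusted p under 0.05), and DESeq2 called 775.

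**Figure D4:**
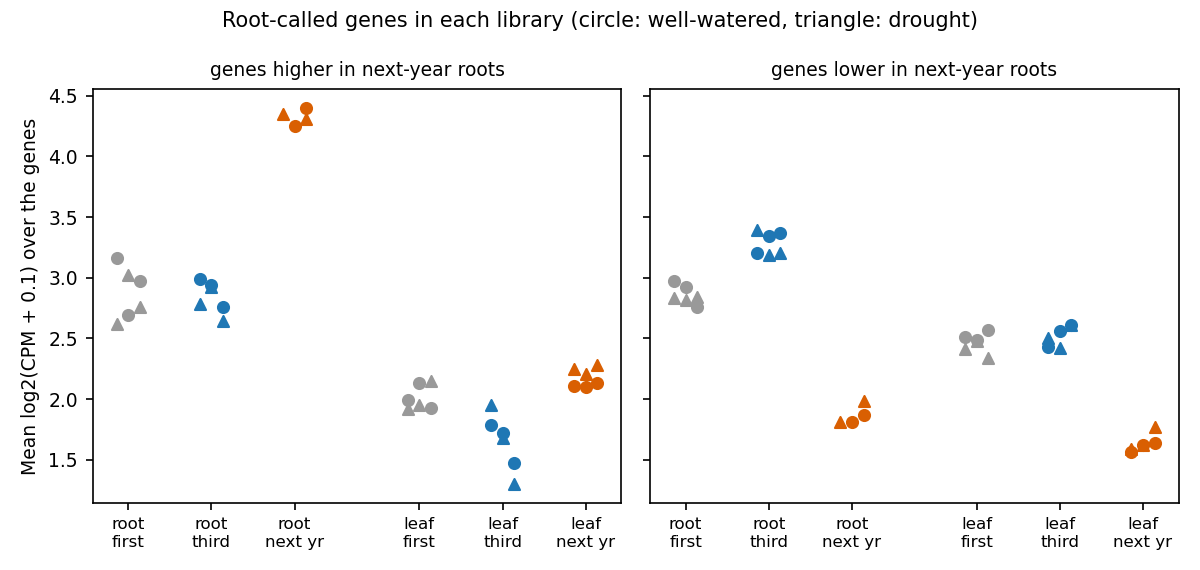
Mean log2(CPM + 0.1) over the 265 genes that rose in root (left) and the 169 that fell (right), in every root and leaf library. The next-year root libraries lie at 4.25 to 4.40 for the genes that rose and at 1.81 to 1.98 for those that fell. Both are outside the range of both earlier root samplings. The next-year leaf libraries lie above every third-sampling leaf library on the left and below all of them on the right. On the left, at 2.10 to 2.28, they overlap the first-sampling leaves, which reach 2.15. On the right they reach 1.77, and the first-sampling leaves lie at 2.34 or more.

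Leaves, which share no library with the root comparison, changed in the same direction for most of the root genes. In the 12 leaf libraries of the same 2 samplings, edgeR with regime as a term called 6359 of 31755 genes higher in the next year, or 20%, and 7051 lower, or 22.2%, together 42.2%. Of the genes that rose in root, 224 could be tested in leaf, and 128 of these rose there too, or 57.1%, against 19.6% of all genes tested in both tissues; 11 fell. Of the genes that fell in root, 144 could be tested, and 114 fell in leaf as well, or 79.2%, against 22.6%; 1 rose. The median leaf change was 0.60 for the genes that rose in root and -0.69 for those that fell, against -0.04 for all genes tested in both tissues.

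The wider set of root genes called only with the sowing block in the fit had the same lean. Of the 1223 higher ones tested in leaf, 46.5% rose there and 9.48% fell, and of the 1077 lower ones, 50.4% fell and 5.11% rose. In the other direction, the 5807 genes that rose in leaf and could be tested in root had a median root change of 0.17, with 70.6% above 0. The 6705 that fell in leaf had -0.14, with 35.8% above 0. All genes tested in both tissues had -0.015, with 48.4% above 0. Without the block, root calls among the 5807 were 128 higher and 1 lower, and among the 6705 they were 11 higher and 114 lower. Over all 29700 genes tested in both tissues they were 224 higher and 144 lower. These calls are the overlaps already given above, counted from the leaf side, and add no second result. Across the 29700 genes tested in both tissues the Spearman correlation of the changes was 0.30. Genes are not independent replicates, and both tissues came from the same sowings and samplings.

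The leaf values of the named genes followed the root. MD15G1071400 stood at 21.0 ± 5.25 CPM in third-sampling and 69.1 ± 11.3 CPM in next-year leaves (SD, n = 6 in both), higher by 1.71 on the log2 scale (SE 0.18; adjusted p = 6.88e-05, edgeR). MD11G1200600 stood at 115 ± 6.13 and then 78.2 ± 4.87 CPM, with a leaf change of -0.56 (SE 0.07; adjusted p = 0.000164, edgeR). The fall of MD11G1200600 was larger in root, by 0.59 on the log2 scale (SE 0.13, edgeR adjusted p = 0.00706). For MD15G1071400 the root change exceeded the leaf change by 0.02 (SE 0.28, edgeR adjusted p = 0.995). Both genes were chosen for their change in these root libraries, which favours a larger change in root.

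The all-or-none pattern of MD10G1033300 and MD05G1239800 was shared by both tissues. MD10G1033300 had 0 counts in the 6 third-sampling leaf libraries and 3.72 to 10.9 CPM in the 6 of the next year, at least 643-fold higher, and MD05G1239800 had 8.29 to 21.6 CPM and then 0 counts, at least 1200-fold lower. Over all identifiers of the table, 2 had 0 counts in all 12 third-sampling libraries of both tissues and at least 1 CPM in all 10 of the next year, and 1 had the reverse. The same search between the first and the third sampling found 0 in either direction. MD10G1033300 was also all-or-none within the first sampling, with counts in 3 of its 12 libraries. In the deposited table the next-year columns are headed in another form than those of both earlier samplings, and Salmon divides reads among similar transcripts. The part of either in this pattern was not tested.

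**Figure D5:**
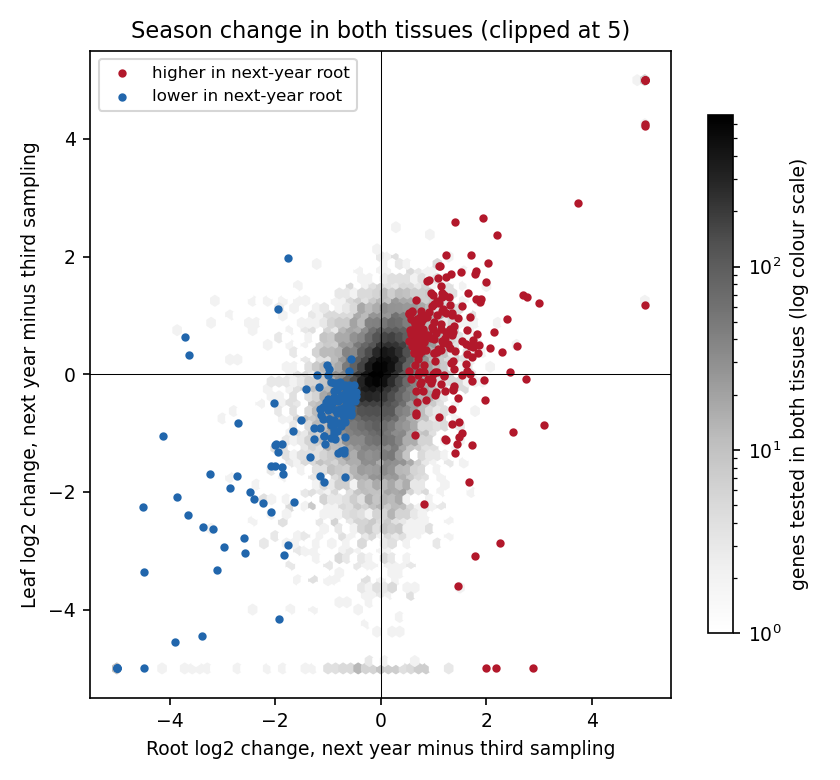
Log2 change from the third sampling to the next year in root (x axis) and leaf (y axis) for the 29700 genes tested in both, as grey density, with the root-called genes in colour and values clipped at 5. Of the coloured genes, 173 of the 224 that rose in root lie above 0 in leaf and 136 of the 144 that fell lie below 0. Among all genes tested in both tissues 62.5% had the same sign in both, and 47.1% of the genes tested in leaf lie above 0 there.

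Fewer genes moved by 2-fold or more in root than in leaf, a difference given as a description. Over the genes tested in both tissues, 5.85% changed by at least 2-fold in root and 14.7% in leaf, whatever their p. The variation between replicates was larger in root, with a biological coefficient of variation of 34.0% against 27.9%, on 10 against 12 libraries, so the numbers of called genes are not comparable between the tissues.

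The difference between the tissues was tested in a joint fit of the 22 libraries. The root change was more positive than the leaf change for 2102 of 35238 genes, or 5.97%, and more negative for 1666, or 4.73%, together 10.7% (edgeR, adjusted p under 0.05). Most of these genes were called in leaf. Of the 1893 more positive ones tested in both tissues, 1743 had fallen in leaf and 58 had risen in root. Of the 1547 more negative ones, 1293 had risen in leaf and 29 had fallen in root. Leaf calls were also far more frequent among all 29700 genes tested in both tissues. There, 6705 had fallen and 5807 risen in leaf, while 224 had risen and 144 fallen in root. Of the 265 genes that rose in root, 68 rose more than in leaf by this test (25.7%) and 6 less (2.26%). Of the 169 that fell, 31 fell more (18.3%) and 2 less (1.18%). Among all genes tested in root and in the joint fit, the root change was more positive for 6.29% and more negative for 4.75%. The same root libraries chose these genes, which favours a larger change in root, so these counts are a description.

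The largest such differences came from genes nearly silent in a tissue. MD06G1212600 rose in root and fell in leaf, with root levels of 4.19, 1.12 and 3.69 CPM in well-watered and 3.02, 2.10 and 3.55 CPM in drought plants at the third sampling and 3.97, 31.6, 27.7 and 24.2 CPM in the next year. Its lowest next-year value, in well-watered block 2, lay within the earlier range. The root change was 2.88 on the log2 scale (SE 0.53, edgeR adjusted p = 0.0361), and with the sowing block 2.55 (SE 0.30, adjusted p = 0.00519). Without the well-watered next-year library of block 2 the adjusted p was 0.0136, and without any other single library it lay between 0.0527 and 0.132. In leaf (adjusted p = 0.000664) it went from 221 counts over the third-sampling libraries to 1 in the next year, a ratio of 258 (95% counting interval 45.8 to 10200), and the root change exceeded the leaf change by 9.98 on the log2 scale (SE 1.31, edgeR adjusted p = 0.000475).

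MD10G1022900 varied widely in root, from 1.77 to 281 CPM at the third sampling and from 25.0 to 680 CPM in the next year, and went from 2879 counts to 1 in leaf, a ratio of 3360 (interval 603 to 133000). In the other direction, MD10G1197100 went from 200 counts to 1 in root, a ratio of 153 (interval 27.2 to 6080, 2 of the 6 third-sampling libraries at 0 counts), and stood at 4.90 ± 3.52 and 8.12 ± 0.217 CPM in leaf (SD, n = 6 each). Most of its 200 counts came from the third-sampling drought roots of blocks 2 and 3, with 102 and 82. MD05G1011900 was a leaf-abundant gene, at 157 ± 58.2 and 218 ± 18.9 CPM in leaf, with 40 counts over the third-sampling roots and 0 in the next year, at least 10.2-fold lower by the floor of 3 counts. Intervals and floors cover counting error only. For these 3 genes the change in root alone did not pass the test (edgeR adjusted p = 0.804, 0.0824 and 0.164); with the sowing block MD10G1197100 passed (adjusted p = 0.024). The fitted root change of MD10G1022900 was 0.58 on the log2 scale, and -0.49 without the next-year drought library of block 3. In leaf alone, MD10G1197100 and MD05G1011900 did not pass either (edgeR adjusted p = 0.113 and 0.0906).

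Genes abundant in only 1 of the tissues at the first sampling are described by their counts. Of the 251 leaf-abundant genes tested in root, 0 rose and 1 fell, and of the 281 root-abundant genes, 6 rose and 1 fell, or 2.49% against 1.32% of all tested genes. With the sowing block in the fit, 38 of the root-abundant genes rose and 16 fell, or 19.2%, and 3 of the leaf-abundant genes rose and 3 fell, or 2.39%, against 9.21%. Under stricter limits 0 of 28 root-abundant and 0 of 43 leaf-abundant genes tested were called without the block, and 4 and 0 with it. The median log2 change was 0.14 for the root-abundant and -0.32 for the leaf-abundant genes, against -0.01 for all tested genes. By definition the classes differ in root level, with the leaf-abundant genes near the floor there. Since the share of genes called also varied with level, class and level are not told apart here.

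None of 6 values of the libraries as a whole passed an exact two-sided permutation test between the seasons, which leaves the sowing block out of account. Genes at 1 CPM or more numbered 26790 ± 150 at the third sampling (SD, n = 6) and 26610 ± 514 in the next year (n = 4) (exact p = 0.524). The 10 most abundant genes took 8.27% ± 1.11 and 7.71% ± 0.916 of the counts (exact p = 0.448), and the 100 most abundant 18.9% ± 1.34 and 18.7% ± 1.56 (exact p = 0.89). The leaf-abundant genes took 0.0120% ± 0.00228 and 0.00948% ± 0.000998 (exact p = 0.081, or 0.0238 without the third-sampling drought library of block 3), and the root-abundant genes 2.02% ± 0.161 and 2.13% ± 0.117 (exact p = 0.281). The total counts also did not separate the seasons (exact p = 0.324). Adjusted over these 6 values every p was at least 0.486, where 4 against 6 libraries allow a smallest unadjusted p of 0.00476. Within the matched pairs the number of genes detected was 209 and 262 higher in the next year for well-watered blocks 2 and 3, and changed by -234 and -1100 for drought blocks 1 and 3. The share of the leaf-abundant genes was lower in the next year in all 4 pairs, with differences of -0.00085 and -0.00282 percentage points for well-watered blocks 2 and 3 and -0.00426 and -0.000806 for drought blocks 1 and 3.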

How the data were processed

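RNA of roots and leaves was sequenced as stranded mRNA libraries in 100 bp pairs, per the labels' protocols. The deposited table holds the authors' estimated counts per gene, in whole numbers, for 52311 identifiers. Salmon, FastQC, DESeq and DESeq2 are named without a version in the submitters' processing notes. Neither build nor annotation nor any setting was given in these sources. Values of near-identical gene copies are uncertain. Gene lists by product could not be run, since no identifier had a name.

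Counts were filtered with filterByExpr, scaled by TMM and tested with glmQLFit (robust) and glmQLFTest of edgeR 4.0.16 in R 4.3.3, with limma 3.58.1; an adjusted p under 0.05 counted as called. The SE is the size of the change divided by the root of F. DESeq2 1.42.0 was an alternative, beside other scalings, filters and fits, the sowing block and leaving out each library. CPM levels were scaled by TMM within each tissue. Shares used raw totals. The steps were tested on simulated counts.

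The deviations of same-numbered third-sampling libraries from their group means correlated at 0.243, 0.371 and 0.657 for blocks 1, 2 and 3. In groups of 3 the deviations sum to 0, so the shared departure of block 3 favours positive values for blocks 1 and 2 as well. Libraries of different number were not compared in this way, so the values for blocks 1 and 2 do not show pairing. No pair of the 10 libraries agreed within sampling noise (lowest chi-square per gene 41.2 over 45 pairs). The labels do not say how many plants went into a library.

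Named genes were called in every fit leaving out a library, averaged a log2 CPM of 1 or more and, for the season difference, did not overlap between seasons. The largest fold and the largest CPM difference in each direction, or the 2 largest differences between tissues, were then taken. The comparison, lists and rules were chosen with earlier results of these data known.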

Additional observations from a re-analysis of the deposited data

Results flagged for a closer look

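The season change differed between root and leaf for 3768 genes by the joint test described above, which marks it as a difference between tissues. Of 34 groups of 4 or 6 libraries checked for a single value far from the others, 5 held one. A chance rate of about 1 in 20 groups does not apply here. A single count in a group otherwise at 0 is always flagged, and the genes were picked for large differences. MD15G1071400 stood at 90.8 CPM in the well-watered third-sampling root of block 3, above the other 5 and below every next-year root. MD10G1022900 stood at 680 CPM in the next-year drought root of block 3. The other 3 were a single count in a group otherwise at 0: MD10G1022900 at 0.0308 CPM in the next-year drought leaf of block 3, MD06G1212600 at 0.0173 CPM in the next-year well-watered leaf of block 2, and MD10G1197100 at 0.0231 CPM in the next-year drought root of block 3.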

How the results depend on the processing

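The number of root genes that differed between the seasons, 434, stayed within 1.5 times under RLE scaling, without a filter, with a stricter filter and without robust dispersions. It moved to 2483 with DESeq2, 3028 with the sowing block, 804 with all 16 root libraries fitted, 244 with 4 group means and 39 against a minimum change of 1.5-fold. Leaving out a library gave 38 to 251. Chosen after seeing the data, leaving out both third-sampling block 3 libraries gave 248, leaving out all of block 3 gave 131, and the 4 matched pairs with the pair as a block gave 1015. The causes were not tested. The calls within a regime, 8 each, moved to 604 and 540 with DESeq2 and to 37 and 1407 with the sowing block, for well-watered and droughted roots. Fitting a regime alone gave 0 and 4, no filter gave 13 in droughted roots, and leaving out a library gave 3 to 12 and 0 to 9. DESeq2 gave 6 for the regime by season term, 4 for the regime and 775 for the third against the first sampling, where edgeR gave 0; leaving out a library gave 0, 0 and 0 to 5. Leaf calls ran from 11427 to 13264 and calls between tissues from 2529 to 4090 when a library was left out. With the sowing block there were 14699 leaf calls, against 13410, and 5600 calls between tissues, against 3768; both are within 1.5 times. Of the named genes, the block changed the call of MD10G1197100 in root. In the comparison that named them, all 8 kept their direction in every fit, and MD11G1200600 lost its call against 1.5-fold only. Calls in the fits that left out a library were a condition for naming them and add nothing here. The root change of MD10G1022900, which was not called, turned without 1 library.

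When a library was left out, the season difference was -344 to 57.8 genes detected, -0.738 to 0.467 percentage points for the 100 most abundant genes, -0.941 to -0.155 for the 10 most abundant, 0.062 to 0.172 for root-abundant and -0.00319 to -0.00201 for leaf-abundant genes, and 4030261 to 11552994 for total counts. The sign of the genes detected turned without the next-year drought library of block 3 (57.8), and that of the 100 most abundant genes without the third-sampling well-watered block 3 (0.166) or drought block 1 (0.0647) or the next-year well-watered block 2 (0.467) or 3 (0.0714). The leaf-abundant share passed p under 0.05 without drought block 3 of the third sampling (-0.00319, exact p = 0.0238) and without both block 3 libraries there (-0.00322, exact p = 0.0286).

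With 2 next-year libraries per regime, the change in each test within a regime, and in the regime by season term, rests on 5 libraries per regime. In the main fit the spread was taken from all 10 root libraries.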
